A study of Mus musculus with 6 samples.

Results

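The retinoid genes described here were 9 genes that carry, make or sense retinoic acid: *Crabp1*, *Crabp2*, *Dhrs9*, *Aldh1a1*, *Aldh1a2*, *Aldh1a3*, *Rara*, *Rarg* and *Rxra*. They were chosen by name, and their Ensembl identifiers were looked up in GENCODE release M21. All 9 were present among the 26579 genes of the count matrix. Skin from the dorsal neck of 6 female littermates aged 33 days was sequenced by RNA-Seq, 3 of them wild type and 3 of genotype YAP2-5SA-∆C. The YAP2-5SA-∆C mice overexpress a mildly active mutant of YAP, the transcriptional cofactor at the end of the Hippo pathway, in the basal keratinocytes of the skin. Their biopsies were taken when the skin phenotype first became visible. The strain background and the insertion site of the transgene are not given in the sources used here, and the wild type littermates carry no transgene.

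Retinoic acid is made from retinol (vitamin A) in a pair of oxidation steps. Retinol is first oxidised to retinaldehyde by dehydrogenases such as DHRS9, and retinaldehyde is then oxidised to retinoic acid by the ALDH1A enzymes. Inside the cell, retinoic acid is held by the binding proteins CRABP1 and CRABP2, and in the nucleus it activates retinoic acid receptors (RARs), which bind DNA as pairs with retinoid X receptors (RXRs). In skin, retinoids are known for their effects on keratinocyte differentiation, the hair cycle and the sebaceous gland, and enzymes of retinoic acid synthesis are found in the hair follicle.

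RAR/RXR pairs recognise direct repeats of a 6-base half-site. The half-site was searched as AGGTCA, as AGTTCA, as GGGTCA and as GGTTCA, on both strands of the RefSeq promoter windows (GRCm38.p6, 250 bases before to 50 bases after each annotated start). The repeat with 5 bases between the half-sites, known as DR5, was found in 32 of 32851 promoter windows of all genes (0.0974%). It was found in 2 of 58 windows of all retinoid genes listed here, those of *Rarb* and *Cyp26a1*, which are textbook targets of retinoic acid. The repeat with 1 base between the half-sites (DR1) was found in 1 of the 58 windows (1.72%), that of *Bco1*, against 0.222% of all windows, and the repeat with 2 bases (DR2) in 0 of 58, against 0.268%. The windows of *Rarb* and *Cyp26a1* are shown because they hold the DR5 element. Capitals mark the half-sites, which read as their reverse complement in *Cyp26a1*.
Rarb, chr14:16575507-16575535, minus strand, repeat 53 bases before the start: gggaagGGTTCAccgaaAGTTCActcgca
Cyp26a1, chr19:37697770-37697798, plus strand, repeat 32 bases before the start: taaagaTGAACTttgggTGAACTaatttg

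Promoter windows were given for 7 of the 9 genes (13 windows, some genes having several starts). None of the 13 windows held a DR1, DR2 or DR5 repeat. At least 1 half-site was present in 6 of 13 windows (46.2%), against 43.7% of all promoter windows. The letters GGAATG, the core of the element bound by the TEAD partners of YAP, were present in 2 of 13 windows (15.4%) against 14.7% of all windows. The following matches are shown for the genes with the lowest p in each direction, *Crabp1* and *Dhrs9*, and for the other match to GGAATG, in *Aldh1a1*. Capitals mark the match, and a match is a description of these letters and not of a binding site.
Crabp1, chr9:54764629-54764658, plus strand, GGAATG 107 bases before the start: ctgagaagatgaGGAATGgtgaggggcgcc
Aldh1a1, chr19:20492403-20492432, plus strand, GGAATG on the opposite strand, 168 bases before the start: aatgtgacaggaCATTCCaggtggaagact
Dhrs9, chr2:69380362-69380391, plus strand, half-site on the opposite strand, 88 bases before the start: tttggaaacctgTGACCTacaatctccccg

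Values are given as CPM, the counts of a gene scaled to a common library size after TMM normalization, as the mean ± SD (n = 3 mice). The total counts per library ranged from 11225705 to 19505036. The mitochondrial ribosomal RNAs took 17.2% to 20.4% of the counts. The unnamed gene *ENSMUSG00000045999* took 5.27% in wild type replicate 3 and 0.0634% to 0.288% elsewhere. *Yap1* had 131 ± 9.47 CPM in wild type biopsies and 136 ± 7.32 CPM in those of YAP2-5SA-∆C mice (quasi-likelihood test of edgeR, FDR of 0.635), and it is not known if transgene reads are part of these counts. The replicates were separate mice. Because whole skin was sequenced, fewer cells of a type and less RNA per cell cannot be told apart for any gene below.

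None of the 9 retinoid genes passed the quasi-likelihood test of edgeR at an FDR of 0.05, a threshold that 288 of 15102 tested genes passed (1.91%). Of the 9, 4 had an unadjusted p below 0.05, as did 26.3% of all tested genes. Without *Aldh1a2*, which entered the test only through the YAP2-5SA-∆C libraries, the number was 3 of 8. The values of *Crabp1*, *Aldh1a2* and *Rxra* were higher in YAP2-5SA-∆C skin, and those of *Dhrs9* were lower. In 5 of the 9 genes, the libraries of the genotypes did not overlap, as in 33.8% of all tested genes: *Crabp1*, *Aldh1a2* and *Rxra* lay above wild type in all 3 YAP2-5SA-∆C libraries, and *Dhrs9* and *Aldh1a3* lay below. Because of the way it entered, *Aldh1a2* had to differ. Without it, 4 of 8 genes did not overlap. The likelihood-ratio test of edgeR called 4 of the 9 (3 without *Aldh1a2*), against 10.4% of all tested genes. DESeq2 called 2, against 10.7%, and voom called 0, against 1.65%. In what follows, an FDR is that of the quasi-likelihood test unless another test is named. The median log2 fold change was 0.10 over the 9 genes, with or without *Aldh1a2*, and -0.01 over all tested genes.

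**Figure D1:**
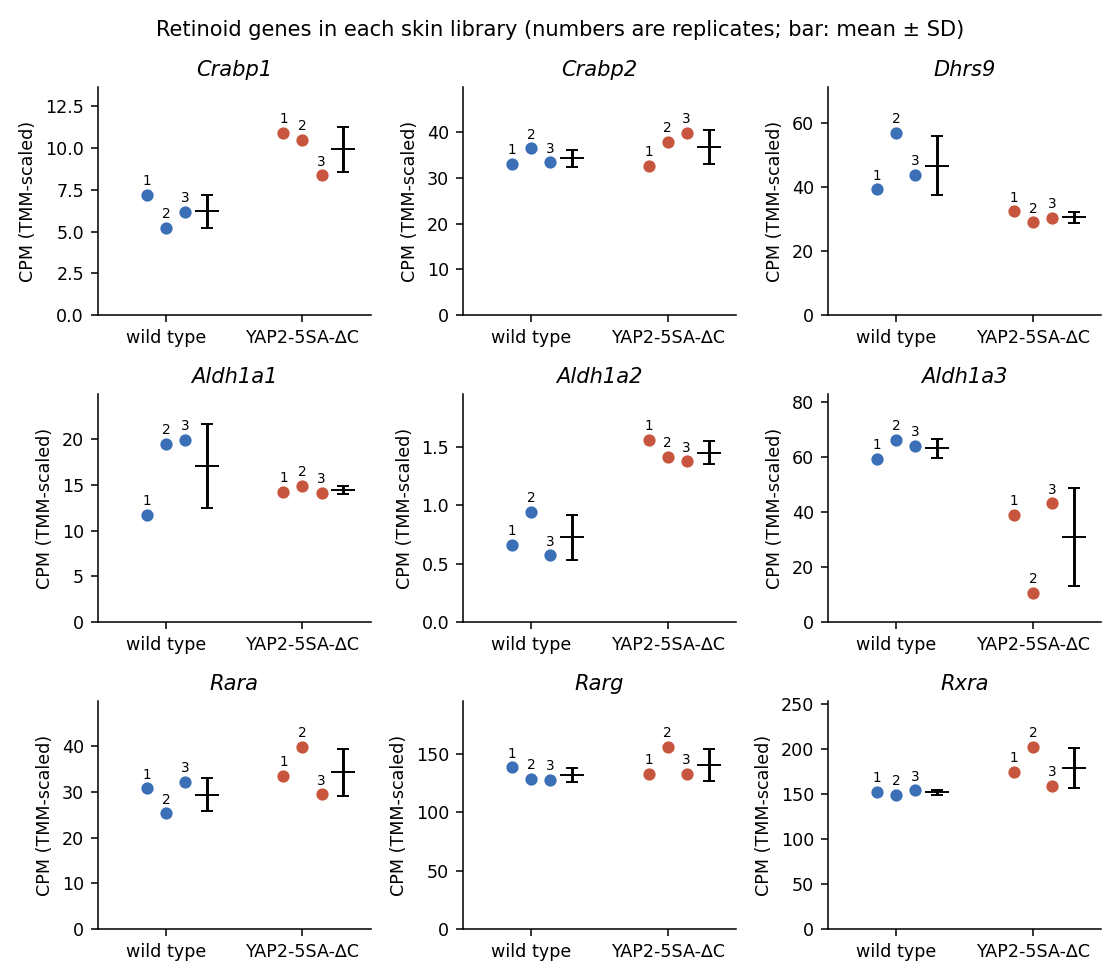
Level of each of the 9 retinoid genes (TMM-scaled CPM, linear axes from 0) in the 3 wild type (blue) and 3 YAP2-5SA-∆C (red) libraries, with replicate numbers beside the points and the mean ± SD to the right of each group. The groups are separate for *Crabp1*, *Aldh1a2*, *Rxra*, *Dhrs9* and *Aldh1a3*, and YAP2-5SA-∆C replicate 2 is far below the other libraries for *Aldh1a3*, at 10.7 CPM.

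The binding proteins were examined first. CRABP1, which holds retinoic acid in the cytoplasm and is known to promote its breakdown, is encoded by *Crabp1* (ENSMUSG00000032291, chr9:54764748-54773110, plus strand, GRCm38). *Crabp1* was measured at 7.20, 5.23 and 6.18 CPM in wild type replicates 1, 2 and 3 and at 10.9, 10.5 and 8.36 CPM in YAP2-5SA-∆C replicates 1, 2 and 3. Every YAP2-5SA-∆C library was above every wild type library, and the means were 6.21 ± 0.984 and 9.91 ± 1.36 CPM (1.60-fold). The log2 fold change was 0.68 (SE 0.16, 95% interval 0.29 to 1.06), with an unadjusted p of 0.00405 and a quasi-likelihood FDR of 0.0655. *Crabp1* passed the likelihood-ratio test (FDR of 0.0100) and DESeq2 (adjusted p of 0.0165) but not voom (FDR of 0.0691). Leaving out each library in turn gave log2 fold changes of 0.56 to 0.81 and FDRs of 0.0744 to 0.206. Dermal papilla cells are a known site of *Crabp1* in skin. The 7 tested of 8 dermal papilla markers had a median log2 fold change of -0.11, with 0 past the FDR of 0.05. At an unadjusted p below 0.05, 3 were lower and 1 higher, and the likelihood-ratio test called 2, *Lef1* and *Corin*, both lower (log2 fold changes of -0.94 and -0.92). The summed levels of the list were 348 to 407 CPM in wild type libraries and 288 to 351 CPM in YAP2-5SA-∆C libraries. The part of these cells in the *Crabp1* values was not tested.

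CRABP2 delivers retinoic acid to the nuclear receptors. *Crabp2* (ENSMUSG00000004885, chr3:87948666-87953376, plus strand) was measured at 33.1, 36.5 and 33.4 CPM in the wild type libraries and at 32.6, 37.8 and 39.9 CPM in the YAP2-5SA-∆C libraries. The groups overlapped, with a log2 fold change of 0.10 (SE 0.09, 95% interval -0.12 to 0.31, FDR of 0.523). Leaving out 1 library gave 0.04 to 0.20, the lowest without YAP2-5SA-∆C replicate 3 and the highest without YAP2-5SA-∆C replicate 1. Because both genes are read in the same library, their ratio does not depend on scaling. The log2 ratio of *Crabp2* to *Crabp1* counts was 2.47 ± 0.301 in wild type biopsies and 1.89 ± 0.337 in YAP2-5SA-∆C biopsies, a difference of -0.58 (two-sided exact permutation test, p = 0.2, or 0.3 after adjustment over the 3 ratios examined). The ratio of YAP2-5SA-∆C replicate 3 (2.25) was above that of wild type replicate 1 (2.20). The smallest p that 3 libraries against 3 allow is 0.1.

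The dehydrogenase DHRS9 oxidises retinol, and also hydroxysteroids, and is abundant in differentiating epithelia. *Dhrs9* (ENSMUSG00000027068, chr2:69380445-69404533, plus strand) was measured at 39.4, 57.0 and 43.9 CPM in wild type and at 32.4, 29.0 and 30.5 CPM in YAP2-5SA-∆C skin. Wild type replicate 2 was the highest library, and all 3 YAP2-5SA-∆C libraries were below all wild type libraries within a narrow range. The means were 46.7 ± 9.16 and 30.6 ± 1.71 CPM. The log2 fold change was -0.61 (SE 0.14, 95% interval -0.93 to -0.28), with an unadjusted p of 0.00301, the lowest of the 9 genes, and an FDR of 0.0620. *Dhrs9* passed the likelihood-ratio test (FDR of 0.00921) and DESeq2 (adjusted p of 0.00318) but not voom (FDR of 0.0676). Without 1 library at a time, the log2 fold change ranged from -0.71 to -0.44 and the FDR from 0.0640 to 0.186.

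The ALDH1A enzymes carry out the last and irreversible step of retinoic acid synthesis. *Aldh1a3* (ENSMUSG00000015134, chr7:66390890-66427517, minus strand) was measured at 59.5, 66.3 and 64.1 CPM in wild type and at 39.0, 10.7 and 43.2 CPM in YAP2-5SA-∆C skin. All YAP2-5SA-∆C libraries were below wild type, and replicate 2 was far below the other two. The means were 63.3 ± 3.46 and 31.0 ± 17.7 CPM. The log2 fold change was -1.03 (SE 0.45, 95% interval -2.08 to 0.02), with a quasi-likelihood FDR of 0.198, a likelihood-ratio FDR of 0.0426, a value of 0.140 with voom and an adjusted p of 0.290 with DESeq2. YAP2-5SA-∆C replicate 2 decided the size and the call. Without it, the log2 fold change was -0.61 and the FDR 0.0154, in a fit that called 816 of 14950 genes. With any other library left out, the FDR was 0.168 to 0.371.

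*Aldh1a1* (ENSMUSG00000053279, chr19:20492715-20643465, plus strand) was measured at 11.7, 19.4 and 19.9 CPM in wild type and at 14.2, 14.9 and 14.1 CPM in YAP2-5SA-∆C skin. All 3 YAP2-5SA-∆C libraries lay between wild type replicate 1 and the other wild type libraries, and the log2 fold change was -0.24 (SE 0.20, 95% interval -0.70 to 0.23, FDR of 0.478). The value depended on single wild type libraries, at -0.44 without replicate 1 (FDR of 0.0706), -0.13 without replicate 2 and -0.10 without replicate 3. *Aldh1a7* is a near-identical copy of *Aldh1a1*, and only uniquely mapped reads entered the counts, so reads may be missing from both. *Aldh1a7* had 9.99 ± 2.42 CPM in wild type biopsies and 11.2 ± 1.53 CPM in those of YAP2-5SA-∆C mice (FDR of 0.654). The log2 ratio of *Aldh1a3* to *Aldh1a1* was 1.93 ± 0.357 in wild type biopsies and 0.86 ± 1.16 in YAP2-5SA-∆C biopsies. The difference was -1.07 (p = 0.1 in the exact permutation test, two-sided, which cannot go lower, and 0.3 after adjustment), and without YAP2-5SA-∆C replicate 2 it was -0.40. In that library *Aldh1a1* had more counts than *Aldh1a3* (log2 ratio of -0.47), and in the other 5 it had fewer.

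*Aldh1a2* (ENSMUSG00000013584, chr9:71215789-71296243, plus strand), the main retinoic acid producing enzyme of the embryo, was the least abundant of the 9 genes. It had 12, 18 and 6 counts in wild type replicates 1, 2 and 3 and 28, 24 and 22 counts in YAP2-5SA-∆C replicates 1, 2 and 3. The corresponding levels were 0.660, 0.942 and 0.571 CPM against 1.56, 1.41 and 1.37 CPM. The filter required 1 CPM in 3 libraries, which 0 of 3 wild type and 3 of 3 YAP2-5SA-∆C libraries reached, and 86 tested genes reached 1 CPM in libraries of a single genotype. The log2 fold change was 0.96 (SE 0.25, 95% interval 0.35 to 1.56) with a quasi-likelihood FDR of 0.0783 and a likelihood-ratio FDR of 0.0399. DESeq2 gave no adjusted p at this count. In the 3 fits that each left out a wild type library, the log2 fold change was 0.85 to 1.21 and the FDR was 0.145 or more. With no filter at all, in 26579 genes, the direction was the same and the quasi-likelihood FDR was 0.0988.

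The receptors were examined next. RXRA is the main retinoid X receptor of skin and the partner of RARs and of other nuclear receptors. *Rxra* (ENSMUSG00000015846, chr2:27676440-27762957, plus strand) was measured at 153, 149 and 154 CPM in wild type and at 175, 202 and 159 CPM in YAP2-5SA-∆C skin. The wild type libraries were within a few CPM of each other, and all YAP2-5SA-∆C libraries were above them, replicate 3 by the least. The log2 fold change was 0.23 (SE 0.09, 95% interval 0.02 to 0.45), with an unadjusted p of 0.0371, a quasi-likelihood FDR of 0.161 and a likelihood-ratio FDR of 0.414. Without YAP2-5SA-∆C replicate 2, the log2 fold change was 0.15. The unadjusted p was above 0.05 in 4 of the 6 fits that left out a library (up to 0.0955) and with the replicate block (0.0732).

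RARG is the predominant retinoic acid receptor of the epidermis. *Rarg* (ENSMUSG00000001288, chr15:102234938-102257517, minus strand) was measured at 139, 129 and 128 CPM in wild type and at 133, 156 and 133 CPM in YAP2-5SA-∆C skin, which gave a log2 fold change of 0.09 (SE 0.08, 95% interval -0.10 to 0.29, FDR of 0.491). *Rara* (ENSMUSG00000037992, chr11:98927818-98974942, plus strand), the receptor found in most tissues, was measured at 30.7, 25.3 and 32.2 CPM in wild type and at 33.4, 39.8 and 29.5 CPM in YAP2-5SA-∆C skin, which gave a log2 fold change of 0.22 (SE 0.14, 95% interval -0.10 to 0.54, FDR of 0.342). The groups overlapped for both genes, and neither interval reached a log2 fold change of 1. For all 3 receptors, YAP2-5SA-∆C replicate 2 was the highest library. Without it, the log2 fold change was 0.03 for *Rarg* and 0.12 for *Rara*, and without wild type replicate 2 that of *Rara* was 0.12 as well. Over all fits that left out a library, the values were 0.03 to 0.15 for *Rarg* and 0.12 to 0.32 for *Rara*. Basal keratinocytes are a known site of these receptors. Their 7 markers all had positive log2 fold changes (median 0.56, 1 past the FDR of 0.05), with summed levels of 3593 to 4358 CPM in wild type libraries and 5903 to 7540 CPM in YAP2-5SA-∆C libraries, and their part in the receptor values was not tested. The log2 ratio of *Rarg* to *Rara* was 2.17 ± 0.180 in wild type biopsies and 2.04 ± 0.111 in YAP2-5SA-∆C biopsies, a difference of -0.12 (two-sided exact permutation test, p = 0.4, also after adjustment).

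Levels of different genes were compared as RPKM, that is, CPM per kilobase of exon. In wild type skin the order was *Rarg* (30.9 ± 1.42 RPKM), *Rxra* (27.8 ± 0.478), *Crabp2* (26.0 ± 1.40), *Aldh1a3* (13.7 ± 0.750), *Dhrs9* (10.9 ± 2.14), *Crabp1* (7.74 ± 1.23), *Rara* (6.73 ± 0.832), *Aldh1a1* (3.44 ± 0.930) and *Aldh1a2* (0.320 ± 0.0856). The neighbours *Rxra* and *Crabp2*, *Aldh1a3* and *Dhrs9*, and *Crabp1* and *Rara* overlapped between libraries, and the other neighbours did not. In YAP2-5SA-∆C skin the 3 highest and 2 lowest genes held the same places. In between, *Crabp1* (12.4 ± 1.69 RPKM) and *Rara* (7.84 ± 1.19) came before *Dhrs9* (7.16 ± 0.400) and *Aldh1a3* (6.71 ± 3.83). *Aldh1a3* thus came before *Dhrs9* in wild type and after it in YAP2-5SA-∆C skin, with overlapping libraries in both. In YAP2-5SA-∆C skin, *Crabp2* and *Crabp1*, *Crabp1* and *Rara*, and *Aldh1a1* and *Aldh1a2* were the neighbours that did not overlap.

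**Figure D2:**
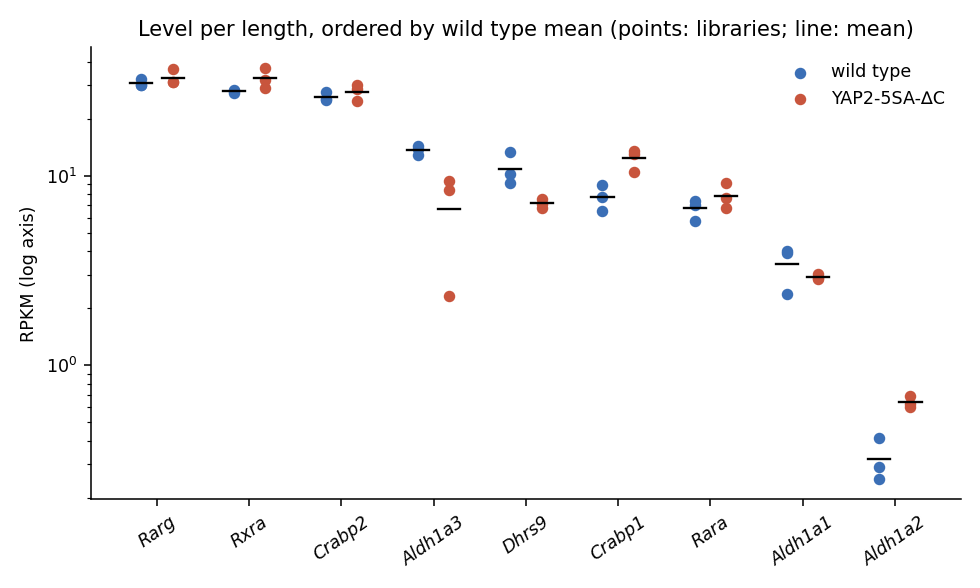
Level of the 9 genes per kilobase of exon (RPKM, log axis), ordered by the wild type mean, with 1 point per library (wild type blue, YAP2-5SA-∆C red) and the mean of each group as a line. *Rarg*, *Rxra* and *Crabp2* were highest in both genotypes, at 25.1 RPKM or more in wild type, and *Aldh1a2* was below 1 RPKM in every library.

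The other genes of the pathway were examined as lists (39 genes, of which 34 were tested). Of the 34, 1 passed the FDR of 0.05. *Rdh12*, a retinaldehyde reductase, was measured at 45.3, 43.3 and 46.6 CPM in wild type and at 60.1, 63.0 and 59.2 CPM in YAP2-5SA-∆C skin. It rose by 0.43 on the log2 scale (SE 0.06, quasi-likelihood FDR of 0.0375). Leaving out 1 library kept the log2 fold change at 0.40 to 0.46, but the FDR remained below 0.05 in 1 of 6 such fits, that without YAP2-5SA-∆C replicate 2, and reached 0.178. The log2 fold change was positive in 21 and negative in 13 of the 34 genes, with a median of 0.11. An unadjusted p below 0.05 was found for 12 higher and 4 lower genes, and the likelihood-ratio test called 8 higher and 3 lower. In 12 genes all YAP2-5SA-∆C libraries lay above wild type, and in 6 below. Of all tested genes, 1.91% passed the quasi-likelihood FDR and 26.3% had an unadjusted p below 0.05. The likelihood-ratio test called 10.4% of them, and 33.8% did not overlap between the genotypes. These shares also apply to the lists below.

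Of the 13 retinol and retinaldehyde dehydrogenases and related enzymes, 10 had a positive and 3 a negative log2 fold change (median 0.40). *Rdh12* was the one past the FDR, and 7 higher and 1 lower had an unadjusted p below 0.05. *Rdh1* (0.88, FDR of 0.0508), *Rdh11* (0.72, FDR of 0.0505) and *Sdr16c5* (0.69, FDR of 0.0515) were just above the threshold in the quasi-likelihood test. All 3 passed it with RLE or upper-quartile scaling, with no filter, without the mitochondrial ribosomal RNAs and *ENSMUSG00000045999*, in the likelihood-ratio test and in DESeq2. None of the 3 passed it with voom or the replicate block, and with the filter of 10 counts in every library or the legacy quasi-likelihood test *Rdh11* passed but *Rdh1* and *Sdr16c5* did not. With 1 library left out, *Rdh1* and *Sdr16c5* passed in 1 of 6 fits, that without YAP2-5SA-∆C replicate 2, and *Rdh11* in 2 of 6, that fit and the one without wild type replicate 1. The FDR of each of the 3 reached 0.190 in the other fits. *Rdh1* and *Rdh16* are related genes that may share reads, which was not tested. *Rdh10*, known as the main retinol dehydrogenase of the embryo, had 17.7 ± 0.590 CPM in wild type biopsies and 16.9 ± 0.856 CPM in those of YAP2-5SA-∆C mice (log2 fold change of -0.07, FDR of 0.626). The sebaceous gland is a known site of retinoid action. Its 7 markers had a median log2 fold change of 0.54 (5 positive and 2 negative, 1 past the FDR and higher), and 3 higher and 1 lower passed the likelihood-ratio FDR. The negative ones were *Fads2* (log2 fold change of -0.73, likelihood-ratio FDR of 0.0110), a fatty acid desaturase, and *Mc5r* (-0.24), a melanocortin receptor. The markers had summed levels of 2656 to 3425 CPM in wild type libraries and 3928 to 5708 CPM in YAP2-5SA-∆C libraries. Their part in the dehydrogenase values was not tested.

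Among the genes of retinol uptake and carriage, 0 of 5 tested genes (of 7) passed the quasi-likelihood FDR of 0.05. At an unadjusted p below 0.05, 1 was higher and 1 lower, and the likelihood-ratio test called 1. That gene was *Stra6*, the membrane receptor that takes up retinol from its plasma carrier. It was measured at 11.3, 23.7 and 19.0 CPM in wild type and at 6.90, 2.77 and 7.43 CPM in YAP2-5SA-∆C skin, with a log2 fold change of -1.66 (SE 0.41, quasi-likelihood FDR of 0.0673). *Ttr*, which encodes a plasma carrier, and *Stra6l* were too low to be tested. Of the 4 genes of retinyl ester storage and release, 0 passed the quasi-likelihood FDR, 2 were higher at an unadjusted p below 0.05, and the likelihood-ratio test called 2. *Awat2*, an acyltransferase that makes wax and retinyl esters, had the lowest p of these, at 6.18 ± 2.14 CPM in wild type biopsies and 14.4 ± 2.81 CPM in those of YAP2-5SA-∆C mice (log2 fold change of 1.21, SE 0.25, FDR of 0.0569).

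Retinoic acid is broken down by the CYP26 enzymes. *Cyp26b1* was the one of 3 that was tested, and *Cyp26a1* and *Cyp26c1* were below the filter. *Cyp26b1* was measured at 72.0, 33.1 and 50.2 CPM in wild type and at 76.8, 140.6 and 81.8 CPM in YAP2-5SA-∆C skin, so the groups were separate by a small margin. Its log2 fold change was 0.95 (SE 0.33), with a quasi-likelihood FDR of 0.131 and a likelihood-ratio FDR of 0.0145. Of the other receptors, 0 of 4 passed the quasi-likelihood FDR. *Ppard*, a fatty acid receptor that pairs with RXRs, had the lowest p (log2 fold change of 0.31, SE 0.08, FDR of 0.0742). *Rarb*, with the DR5 element shown above, had 2.37 ± 0.486 CPM in wild type biopsies and 1.21 ± 0.288 CPM in those of YAP2-5SA-∆C mice (log2 fold change of -0.96, FDR of 0.0823). Of 6 receptor coregulators, 0 passed, and *Nrip1*, a ligand-dependent corepressor, had the lowest p (log2 fold change of -0.21, SE 0.06, FDR of 0.0902). The likelihood-ratio test called 1 of the other receptors, *Rarb*, and none of the coregulators.

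**Figure D3:**
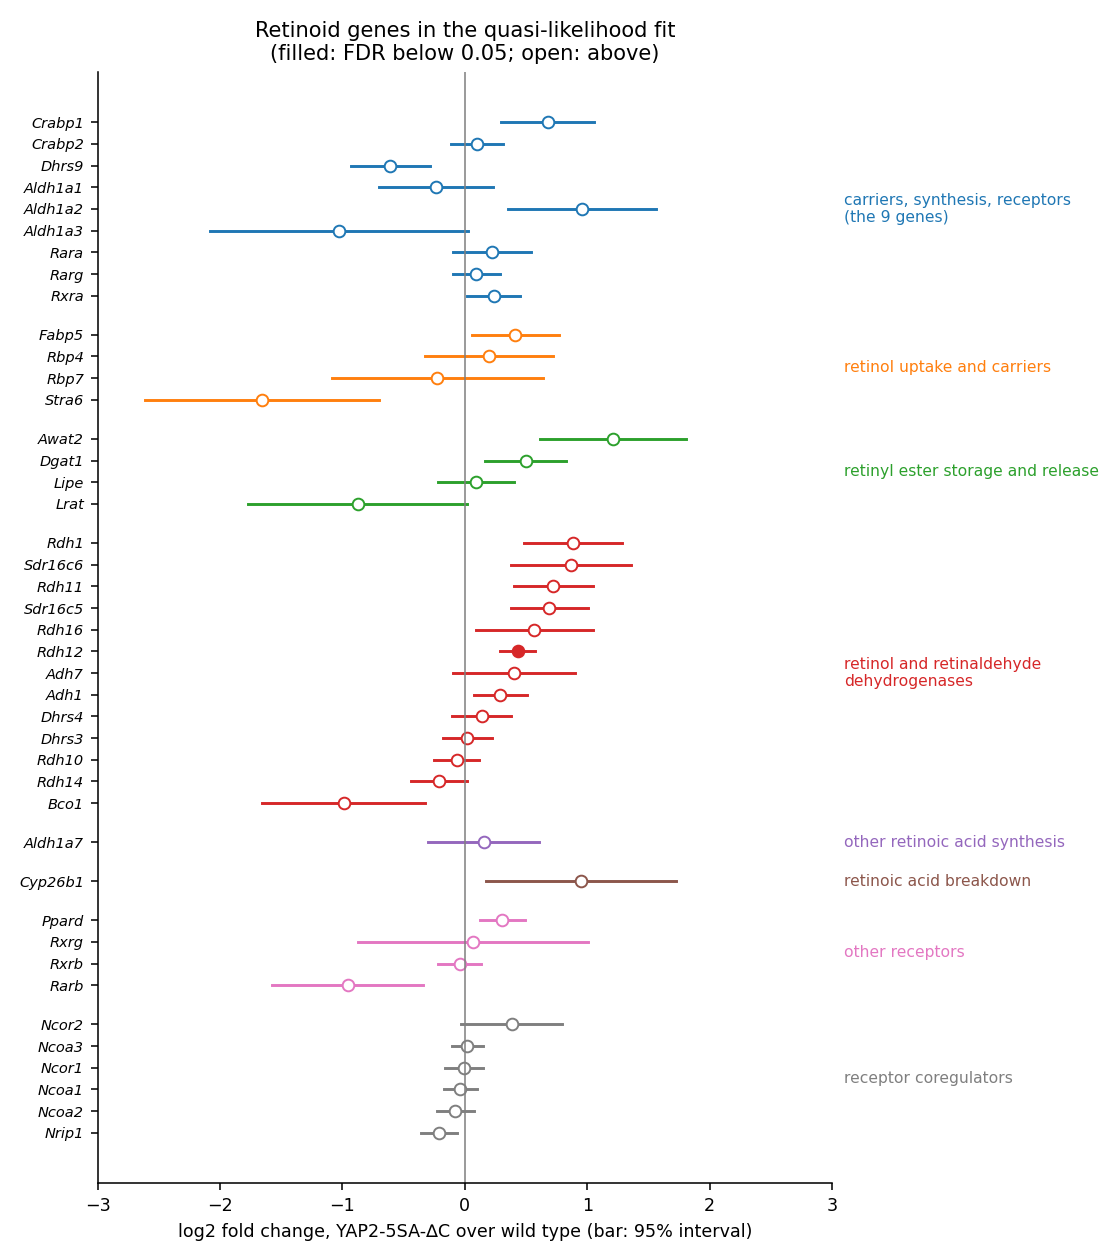
Log2 fold change (YAP2-5SA-∆C over wild type) with its 95% interval for the 9 genes and the other tested retinoid pathway genes reported here, coloured by list. Only *Rdh12* is filled (FDR of 0.0375), the intervals of *Aldh1a3* and *Stra6* are among the widest, and those of the coactivators lie close to 0.

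The last list held 10 genes known to respond to retinoic acid, of which 9 were tested. Some of them are also in the lists above. Of the 9, 1 passed the FDR of 0.05. *Rarres2*, which encodes the chemoattractant chemerin, was measured at 31.5, 33.6 and 35.3 CPM in wild type and at 46.7, 43.7 and 45.1 CPM in YAP2-5SA-∆C skin. It rose by 0.43 on the log2 scale (SE 0.07, quasi-likelihood FDR of 0.0414). Leaving out 1 library gave 0.40 to 0.48, with an FDR below 0.05 in 1 of 6 fits, that without YAP2-5SA-∆C replicate 2, and up to 0.178 in the others. The list had no common direction, with 4 positive and 5 negative log2 fold changes and a median of -0.09. The likelihood-ratio test called 3 higher and 2 lower. Of the genes most used as readouts of retinoic acid signalling, *Cyp26b1* and *Rarb* had values of opposite sign, *Dhrs3* had a log2 fold change of 0.02 (SE 0.08, FDR of 0.900), and *Cyp26a1* was below the filter.

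The libraries were also ranked by their hair markers. The 12 markers of hair shaft and inner root sheath found in the matrix, of 13 listed, summed to 13710.5, 17378 and 16312 CPM in wild type replicates 1, 2 and 3 and to 7257, 1490.1 and 9168 CPM in YAP2-5SA-∆C replicates 1, 2 and 3. All 12 had a negative log2 fold change (median log2 fold change of -1.38), with 0 past the quasi-likelihood FDR, 11 at an unadjusted p below 0.05, and 11 past the likelihood-ratio FDR. None of the 12 was at 0. The libraries ranked in the same order for this sum, for *Aldh1a3* and for *Stra6*: YAP2-5SA-∆C replicate 2 was lowest, followed by YAP2-5SA-∆C replicates 1 and 3 and wild type replicates 1, 3 and 2. *Lrat*, which esterifies retinol (log2 fold change of -0.87, FDR of 0.198), and *Bco1*, which cleaves beta-carotene to retinaldehyde (-0.99, FDR of 0.0884), had this order too, and both were picked after their values were seen. *Rdh1* had the reverse order. Of the 9 retinoid genes, *Aldh1a3* was the 1 with this order. *Aldh1a1* was lowest in wild type replicate 1 and highest in wild type replicate 3, with all 3 YAP2-5SA-∆C libraries in between. *Cyp26b1* was highest where the sum was lowest. *Dhrs9* had its highest level in the library with the largest sum and its lowest in the library with the smallest. The share of all tested genes with the hair order was not counted. YAP2-5SA-∆C replicate 2 was also lowest for the summed melanocyte and dermal papilla markers (151 and 288 CPM). The summed sebaceous gland markers rose from wild type replicates 3, 2 and 1 to YAP2-5SA-∆C replicates 1, 2 and 3. *Dgat1*, of the retinyl ester list, *Awat2* and *Rdh11* had that order. The part of hair follicle RNA in these values was not tested.

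**Figure D4:**
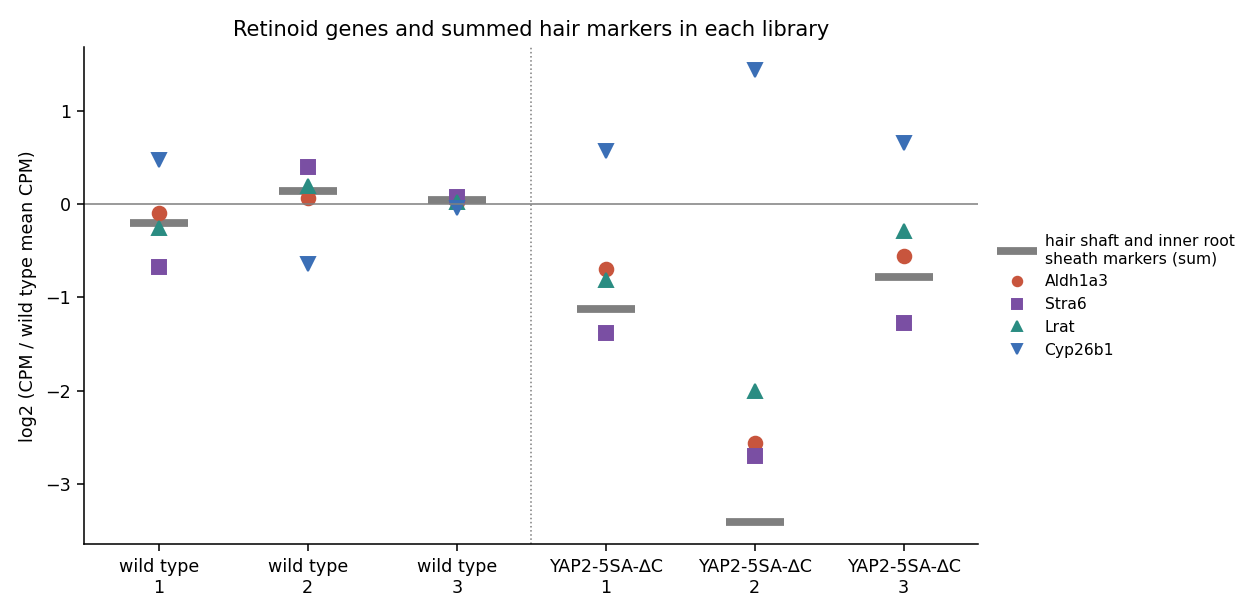
Log2 of CPM over the wild type mean in each of the 6 libraries for *Aldh1a3*, *Stra6*, *Lrat* and *Cyp26b1* (symbols), and for the sum of 12 hair shaft and inner root sheath markers (grey bars). In YAP2-5SA-∆C replicate 2 the sum is at -3.41, *Aldh1a3* at -2.56 and *Stra6* at -2.70, whereas *Cyp26b1* is at 1.44.

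For the retinoid gene with the lowest p in each direction, the 3 protein-coding genes with the most similar profile over the 6 libraries were listed. Likeness was measured as the root-mean-square difference between log2 CPM values centred on each gene's mean. For *Crabp1* these were *Arl11* (0.0596), *Abcg3* (0.0763) and *Hcar2* (0.0859), against a median of 0.401 over 13891 genes. *Arl11* was near the filter, at 0.670 ± 0.0970 CPM in wild type biopsies and 1.11 ± 0.113 CPM in those of YAP2-5SA-∆C mice. Like *Aldh1a2*, it entered the test only through the YAP2-5SA-∆C libraries. For *Dhrs9* these were *Rangrf* (0.0407), *Clu* (0.0521) and *Gcat* (0.0586), against a median of 0.366. *Clu*, which encodes the extracellular chaperone clusterin, had 103 ± 15.4 CPM in wild type biopsies and 67.9 ± 4.76 CPM in those of YAP2-5SA-∆C mice. *Gcat*, an enzyme of threonine breakdown, had 67.3 ± 8.95 CPM in wild type biopsies and 45.3 ± 2.27 CPM in those of YAP2-5SA-∆C mice. Since these genes were chosen for a profile like that of *Crabp1* or *Dhrs9* over the same 6 libraries, their difference between genotypes follows from the choice, and the lists are a description.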

How the data were processed

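RNA was extracted from whole dorsal neck skin biopsies and sequenced as 75-nucleotide paired ends. The authors mapped the reads to GRCm38 with TopHat2 and Bowtie2, counted uniquely mapped reads per Ensembl gene with HTSeq-count, and deposited raw counts. The labels name a stranded total RNA kit and the methods mRNA libraries. The strand setting and annotation release of the counting are not given in the sources used here. The 9 genes share no exon bases with other genes of GENCODE M21, which lacks 558 identifiers of the matrix.

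From the deposited counts, CPM scaled by TMM and RPKM (union exon length) were computed. The 15102 genes that reached 1 CPM in 3 or more libraries were tested with the quasi-likelihood test of edgeR 4.0.16 in R 4.3.3, with genotype as the only term and Benjamini-Hochberg adjustment (FDR) over all tested genes. The standard error was the absolute log2 fold change divided by the square root of the F statistic of that test. The 95% interval was computed from it, so neither measures a spread separately from the p. Alternatives were the likelihood-ratio test of edgeR, voom of limma 3.58.1, DESeq2 1.42.0, other scalings and filters, a replicate block, and the omission of 1 library at a time. The tests were tried on simulated data. Log2 ratios used counts plus 0.5 and exact permutation over libraries.

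Named genes were the 9 genes, the genes of the other retinoid lists past the FDR, the gene with the lowest p in each of those lists, near-identical copies and the 3 genes most like a member. *Rdh1*, *Rdh10*, *Rdh11*, *Sdr16c5*, *Lef1*, *Corin*, *Krt17*, *Fads2*, *Mc5r*, *Lrat*, *Bco1*, *Rarb*, *Dhrs3* and genes below the filter were named in addition, after their values were seen. *Cd2*, *Cd3e*, *Cd3g*, *Trbc2* and *Dgat1* were also named after their values were seen. The genes and lists were chosen with earlier results of these data known. The lists were 7 parts of the retinoid pathway, retinoic acid responsive genes and 14 marker lists, of which 2 genes could not be matched. For 1 gene of the pathway lists, which is included in the counts, no separate result is reported here. Total counts were 11225705 to 19505036 per library, and the 6 to 28 counts of *Aldh1a2* limit its precision.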

Additional observations from a re-analysis of the deposited data

How the results depend on the processing

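The log2 fold changes of the 9 genes kept their sign in all 140 combinations of gene and alternative that could be run. Of the 139 that gave an FDR, 132 stayed on the same side of 0.05. *Aldh1a2* could not be tested without any 1 of the YAP2-5SA-∆C libraries or when every sample had to hold 10 counts. The number of the 9 genes past the threshold was 0 in the quasi-likelihood test, 4 in the likelihood-ratio test, 2 in DESeq2, and 0 to 1 when 1 library was left out (*Aldh1a3* without YAP2-5SA-∆C replicate 2). Of the other retinoid pathway genes, 1 passed, against 4 with RLE scaling, 4 with upper-quartile scaling and 4 without mitochondrial ribosomal RNAs and *ENSMUSG00000045999*. The number was 5 with no filter, 2 with at least 10 counts in every sample, 11 in the likelihood-ratio test, 9 in DESeq2, 2 in the legacy quasi-likelihood test and 0 to 5 with 1 library left out. Of the retinoic acid responsive genes, 1 passed, against 5 in the likelihood-ratio test, 3 in DESeq2 and 0 to 1 with 1 library left out. The cause was not tested. Over all genes, 288 passed, with 249 by voom, 1590 by DESeq2, 497 with no filter, 816 without YAP2-5SA-∆C replicate 2, and 0 without wild type replicate 2 or 3 or YAP2-5SA-∆C replicate 3.

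Samples with the same replicate number did not deviate together (correlations of -0.33, -0.23 and -0.05 over 15102 genes), and no library correlated best with its own number. Deviations were taken from group means of 3 libraries, so these correlations cannot decide if the numbers pair the mice. With the replicate number as a block, edgeR's quasi-likelihood test called 0 genes of all, 0 of the 9 retinoid genes, 0 other pathway genes (13 at an unadjusted p below 0.05) and 0 responsive genes (4 at an unadjusted p below 0.05). With the block, the exact paired permutation p of the log2 ratios was 0.25 for *Crabp2* to *Crabp1*, 0.25 for *Aldh1a3* to *Aldh1a1* and 0.75 for *Rarg* to *Rara*. When 1 library was left out, the differences of these ratios were -0.76 to -0.42, -1.44 to -0.40 and -0.22 to -0.04. At this depth, *Cyp26a1*, *Cyp26c1*, *Ttr*, *Stra6l* and *Aldh8a1* were below the filter and were not tested.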

Other observations

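The remaining marker lists describe the skin in which the retinoid genes were measured. All 5 tested suprabasal markers were positive (median 0.58, 0 past the FDR and 2 at an unadjusted p below 0.05). The 7 stress keratinocyte markers had a median of 1.47, and 3 rose past the FDR. In this list 6 were positive and 1 was negative, *Krt17* (log2 fold change of -0.63, quasi-likelihood FDR of 0.128, likelihood-ratio FDR of 0.0374), whose YAP2-5SA-∆C libraries were all below wild type. Of 6 macrophage markers, all were positive (median 0.53) and 2 rose past the FDR, and of 5 melanocyte markers, all were negative (median -1.13) and 2 fell past the FDR.

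Other cell types showed no gene past the quasi-likelihood FDR of 0.05 (edgeR), and the likelihood-ratio test called 1, the T cell marker *Cd2*. *Cd2* had 0.739 ± 0.153 CPM in wild type biopsies and 1.64 ± 0.359 CPM in those of YAP2-5SA-∆C mice. Like *Aldh1a2*, it entered the test only through the YAP2-5SA-∆C libraries, so it had to differ. The median log2 fold change was 0.25 for 7 fibroblast markers (3 at an unadjusted p below 0.05), 0.04 for 6 adipocyte markers (0), 0.17 for 5 endothelial markers (1), 0.40 for 4 tested T cell markers (1) and -0.14 for 6 cell cycle genes (0), with the number at an unadjusted p below 0.05 in brackets. The T cell marker at an unadjusted p below 0.05 was *Cd2*, which is also part of that median. The other tested T cell markers, *Cd3e*, *Cd3g* and *Trbc2*, had log2 fold changes of 0.61, 0.19 and 0.12. The 6 skeletal muscle markers had a median of -1.12 and summed to 1125 to 6020 CPM in wild type and 1018 to 2859 CPM in YAP2-5SA-∆C skin, ranges that overlapped (0 at an unadjusted p below 0.05).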
